A study of Mus musculus with 3 samples.

Results

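Cytotoxic lymphocytes kill with the contents of a secretory granule, and they choose what to kill with receptors on their surface. The measurements that follow are of 10 genes of this machinery, taken by symbol from the 27998 genes of a single-cell count matrix of mouse meninges. They are 5 granule genes (Gzma, Gzmb, Prf1, Nkg7 and Ctsw) and 5 receptors of natural killer (NK) cells (Klrk1, Klre1, Klra4, Klra8 and Ncr1). Each was read in barcodes with at least 500 unique molecular identifiers (UMIs, each a counted RNA molecule), a number of detected genes within the study's limits and less than 8.3% mitochondrial UMIs. In the 6844 cells that remained after the removal of doublets, the 10 genes held 10706 of 22798512 UMIs.

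Meninges were pooled from 4 male C57BL/6J mice per library, aged 10 to 12 weeks. There were 2 libraries from unstressed mice of the home cage group (HC) and 1 from mice exposed to chronic social defeat by a CD-1 aggressor for 14 days (CSD), described as stress-susceptible by behavioral tests that included urine scent marking and open field. Each library was a droplet library of sorted live nucleated singlets, and the 3 ran in separate lanes of one chip. With 1 CSD pool, the effect of stress and the character of that pool, its sort and its lane cannot be told apart.

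The libraries held 8814690 to 10206236 UMIs and gave 1677 to 2615 cells with a median of 2203 to 2471.5 UMIs per cell. Barcodes of at most 100 UMIs, which mostly carry free RNA, held 7.87%, 24.1% and 5.48% of the UMIs. Here and below, 3 values in a row stand for HC replicate 1 (the 1st HC library), HC replicate 2 (the 2nd) and the CSD library. Pairs of libraries shared 3 to 8 barcodes. Neutrophil-like cells made up 30.4% and 32.3% of the HC cells and 47.4% of the CSD cells, and RNA of neutrophil markers was present in every cell type. Levels are given as CPM, the UMIs of a gene scaled to all UMIs of the cells summed. They were not scaled by transcript length, and levels of different genes are not compared.

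NK cells are innate lymphocytes, and CD8 T cells use the same granule. Perforin (Prf1) opens the target membrane and granzymes A and B (Gzma and Gzmb) are proteases that then enter the target cell. Nkg7 is a membrane protein of the granule needed for its release, and Ctsw encodes cathepsin W, a cysteine protease found in NK and cytotoxic T cells. Klrk1 encodes NKG2D, an activating receptor for stress-induced ligands, and Ncr1 encodes NKp46, an activating receptor that marks NK cells. Klre1 is a lectin-like receptor that pairs with other receptors of its family. Klra4 and Klra8 encode Ly49D and Ly49H, activating Ly49 receptors that signal through Tyrobp and that are each carried by some NK cells and not by others.

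In the GRCm38 annotation (GENCODE M21), Klre1, Klrk1, Klra4 and Klra8 lay within 0.552 Mb of chromosome 6, between positions 129577905 and 130129898. Gzma lay on chromosome 13 (113093825 to 113100981, minus strand), Gzmb on chromosome 14 (56258838 to 56262260, minus strand) and Prf1 on chromosome 10 (61297833 to 61304680, plus strand). Nkg7 (43437073 to 43438249) and Ncr1 (4337724 to 4345164) lay on the plus strand of chromosome 7. Ctsw lay on the minus strand of chromosome 19 (5465043 to 5468507). RefSeq promoter windows of GRCm38.p6, 250 bases before to 50 bases after each gene's start, were matched for 9 of the 10 genes, and the one not matched was Ctsw. The windows of 6 genes whose levels the results below turn on are printed 5′ to 3′ on the gene's strand, with capitals on the core letters bound by Runx factors (TGTGGT, or ACCACA on the other strand) and by T-box factors (TCACAC, or GTGTGA on the other strand):
Gzma (chr13:113100932-113101231, minus strand): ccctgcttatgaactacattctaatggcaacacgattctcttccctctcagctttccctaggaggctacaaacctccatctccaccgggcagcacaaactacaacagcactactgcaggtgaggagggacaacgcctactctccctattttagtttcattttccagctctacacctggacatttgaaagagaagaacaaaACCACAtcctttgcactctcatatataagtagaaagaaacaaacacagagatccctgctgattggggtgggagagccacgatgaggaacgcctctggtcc
Gzmb (chr14:56262285-56262584, minus strand): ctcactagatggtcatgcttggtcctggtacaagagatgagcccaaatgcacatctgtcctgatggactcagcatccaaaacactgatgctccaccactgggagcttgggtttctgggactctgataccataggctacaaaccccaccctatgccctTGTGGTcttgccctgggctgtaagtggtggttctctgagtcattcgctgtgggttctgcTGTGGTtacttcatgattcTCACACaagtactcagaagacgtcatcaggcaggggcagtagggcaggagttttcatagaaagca
Nkg7 (chr7:43436888-43437187, plus strand): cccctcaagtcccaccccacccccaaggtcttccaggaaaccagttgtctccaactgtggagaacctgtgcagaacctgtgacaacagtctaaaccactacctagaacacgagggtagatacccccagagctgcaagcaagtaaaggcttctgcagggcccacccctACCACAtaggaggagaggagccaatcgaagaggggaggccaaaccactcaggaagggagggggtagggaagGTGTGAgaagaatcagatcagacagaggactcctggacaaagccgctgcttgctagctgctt
Ncr1 (chr7:4337465-4337764, plus strand): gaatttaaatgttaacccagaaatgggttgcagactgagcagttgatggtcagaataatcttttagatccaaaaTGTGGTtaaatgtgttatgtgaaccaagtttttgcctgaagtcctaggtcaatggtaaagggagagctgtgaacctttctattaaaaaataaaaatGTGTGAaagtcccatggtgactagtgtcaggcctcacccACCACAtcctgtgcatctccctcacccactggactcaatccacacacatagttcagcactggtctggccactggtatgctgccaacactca
Klra4 (chr6:130067222-130067521, minus strand): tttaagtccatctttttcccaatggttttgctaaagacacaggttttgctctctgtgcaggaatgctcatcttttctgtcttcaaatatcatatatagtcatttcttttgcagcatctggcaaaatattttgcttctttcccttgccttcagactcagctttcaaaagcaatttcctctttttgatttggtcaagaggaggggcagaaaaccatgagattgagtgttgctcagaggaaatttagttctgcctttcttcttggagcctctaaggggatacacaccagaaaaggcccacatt
Klra8 (chr6:130129849-130130148, minus strand): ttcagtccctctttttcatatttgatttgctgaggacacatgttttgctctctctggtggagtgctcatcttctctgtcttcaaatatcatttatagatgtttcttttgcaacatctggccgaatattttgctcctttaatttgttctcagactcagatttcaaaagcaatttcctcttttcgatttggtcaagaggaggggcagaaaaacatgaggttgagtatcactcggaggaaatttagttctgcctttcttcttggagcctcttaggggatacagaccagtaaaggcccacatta

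The Runx letters were in the windows of 7 of the 9 matched genes and in 16.8% of 32851 promoter windows of the same length. The windows of Gzmb and Ncr1 held 2 matches each, and those of Klra4 and Klra8 held none. The T-box letters were in 4 of the 9 windows (Gzmb, Nkg7, Klre1 and Ncr1) and in 14.5% of all windows. A match is a run of letters and no measured binding.

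Klra4 and Klra8 are close copies of each other. Their transcripts were 81.4% identical over 1125 aligned bases and their printed promoter windows 86.6% identical over 299. In the last 500 bases of the transcript, where 3′ reads fall, 4.66% of the 50-base windows of Klra4 and 13.1% of those of Klra8 also occurred in another gene of the family, most often in Klra1 and Klra9, while the other 8 genes shared none. A part of the UMIs of these genes could have been lost or assigned among relatives, so their levels are less certain than those of the rest.

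Cell types came from a clustering in which the 10 genes, and 42 other granule and NK receptor genes, were held out. At first a cluster of 558 cells held NK-like and T-like cells together, and these were parted by a second clustering of the lymphoid cells, a step chosen after seeing the data. All 7 NK markers were detected in the resulting 218 NK-like cells, and their summed level was 4585, 4313 and 4381 CPM. In the 407 T-like cells the same sum was 747, 646 and 796 CPM. Of 8 T cell markers 5 were measured, and their sum was 372 to 540 CPM in NK-like and 2115 to 2303 CPM in T-like cells. A UMI of Cd3d, Cd3e or Cd3g was in 94.8% of T-like, 22.9% of NK-like, 11.9% of neutrophil-like and 7.39% of mature B-like cells, so the NK-like set may hold some T cells. Neutrophil markers summed to 31048 to 36193 CPM in NK-like cells and to 30218 to 38356 CPM in T-like cells.

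NK-like cells numbered 72, 56 and 90. They were 2.82% (95% Clopper-Pearson interval 2.21 to 3.54), 3.34% (2.53 to 4.31) and 3.44% (2.78 to 4.21) of the cells. The 3 intervals overlapped. The CSD share was 0.361 percentage points above the HC mean, and the SD of the 2 HC libraries was 0.366. T-like cells were 6.23%, 5.66% and 5.85%. Intervals cover counting error only. Median depth was 2055, 2083 and 1861.5 UMIs per NK-like cell and 2252, 2781 and 2021 per T-like cell.

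**Figure D1:**
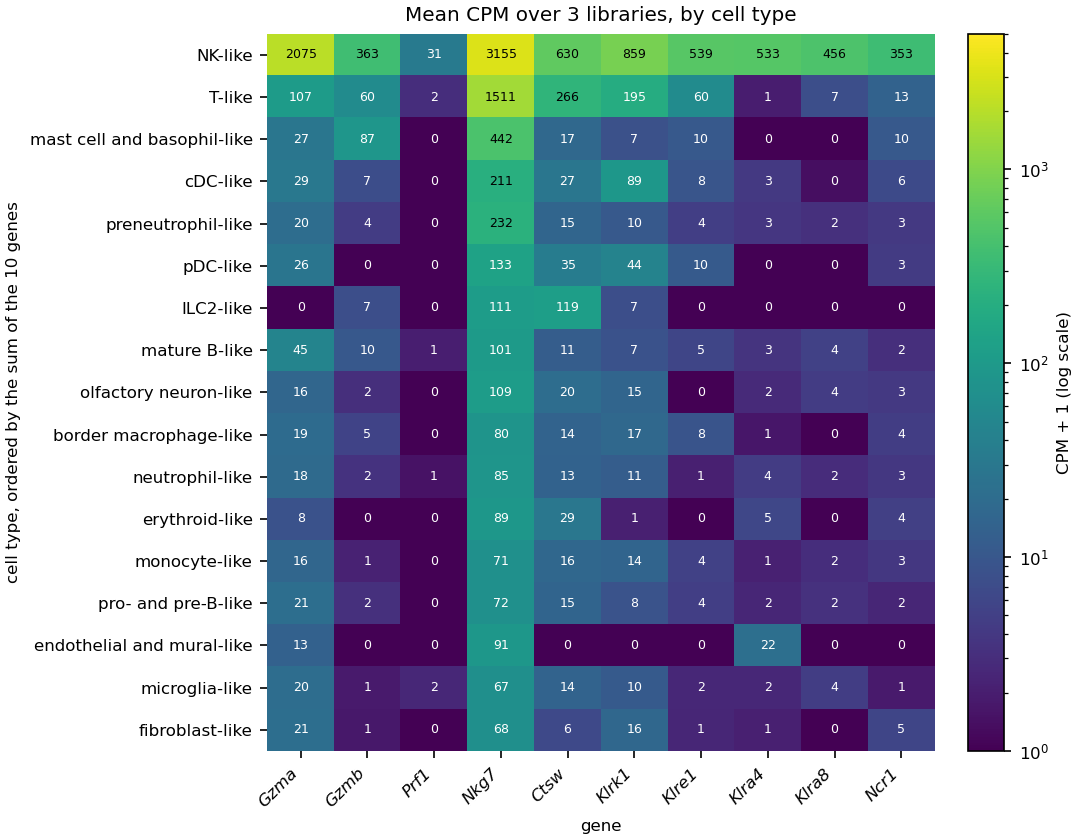
Level of each of the 10 genes in 17 named cell types, as the mean CPM over 3 libraries (number in each field, color on a log scale of CPM + 1). NK-like cells have the highest level of every gene, and T-like cells follow for 8 of them, with mast cell and basophil-like cells second for Gzmb and endothelial and mural-like cells second for Klra4 on 1 UMI.

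All 10 genes were highest in NK-like cells in each of the 3 libraries, among 17 named cell types. This order is a description without a test, since the types were made from the same cells, although the 10 genes took no part in making them. Summed over the 10 genes, NK-like cells held 8993 ± 1111 CPM (SD, n = 3 libraries), T-like cells 2222 ± 487, mast cell and basophil-like cells 600 ± 294 and cDC-like cells 380 ± 86.5. The NK-like libraries did not overlap with the T-like ones, nor the T-like ones with any other type, while mast cell and basophil-like and cDC-like cells lay within their spread. The genes that follow are taken first for where they were expressed and then for the CSD library against the HC libraries.

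Gzma, a granzyme of the tryptase type, stood at 2193, 1557 and 2475 CPM in NK-like cells (374, 196 and 479 UMIs). T-like cells held 42.6, 91.2 and 188 CPM. The next type, mature B-like cells, held 45.1 ± 43.3 CPM, so the T-like and B-like levels were within their spread. A UMI of Gzma was in 52.8%, 48.2% and 50% of NK-like cells. With each cell thinned to 500 UMIs, the shares were 36.1%, 35.7% and 44.4%, against 2.19%, 2.19% and 0% of mature B-like cells, whose median depth was 1590, 1661 and 1383.5 UMIs and which should lack these genes. The NK-like cells thus held cells with and without a UMI of Gzma in near equal number at full depth.

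Gzmb, the granzyme that cleaves caspases, had the widest spread between NK-like libraries in relation to its mean (363 ± 217 CPM, SD, n = 3 libraries). It stood at 410, 127 and 553 CPM in NK-like cells (70, 16 and 107 UMIs). HC replicate 2 was low, and the other HC library lay nearer to the CSD library than to it. T-like cells held 45.1, 14.6 and 122 CPM. Mast cell and basophil-like cells came second in the order of means with 87.3 ± 30.9 CPM on 12 UMIs, within the spread of the T-like cells (60.5 ± 55.1). Few cells carried most of these molecules: at least 50% of the Gzmb UMIs came from 6, 3 and 6 NK-like cells.

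Prf1 was detected at the edge of the depth. NK-like cells held 6, 4 and 5 UMIs (35.2, 31.8 and 25.8 CPM), and T-like cells 1, 1 and 0. Among the 17 types 12 had no UMI of Prf1. Little beyond its place in NK-like cells can be read from 15 UMIs.

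Nkg7 was in 100%, 94.6% and 100% of NK-like cells. It stood at 3013, 2891 and 3559 CPM there and at 1231, 1533 and 1770 CPM in T-like cells. The lowest NK-like library was above the highest T-like one. UMIs of Nkg7 were also found in other types: 442 ± 190 CPM in mast cell and basophil-like, 232 ± 75.1 in preneutrophil-like and 211 ± 63.2 in cDC-like cells. In barcodes of at most 100 UMIs, Nkg7 stood at 182 and 280 CPM in the HC libraries. The preneutrophil-like and cDC-like means lay within that range, and the part of free RNA in them was not tested. Preneutrophil-like and cDC-like cells overlapped, and the lowest mast cell and basophil-like library was above the highest cDC-like one. After thinning, 73.2% to 80.0% of NK-like, 38.4% to 46.4% of T-like and 3.38% to 6.01% of mature B-like cells held a UMI.

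Ctsw stood at 651, 556 and 682 CPM in NK-like cells and at 243, 226 and 327 CPM in T-like cells. No NK-like library overlapped with a T-like one. ILC2-like cells, innate lymphocytes without cytotoxic granules, came next with 119 ± 87.8 CPM on 9 UMIs.

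Among the receptors, Klrk1 reached furthest beyond NK-like cells. It stood at 780, 810 and 987 CPM in NK-like and at 150, 193 and 240 CPM in T-like cells, where it also serves as a costimulatory receptor on CD8 T cells. cDC-like cells held 88.5 ± 25.6 CPM on 131 UMIs and pDC-like cells 44.0 ± 19.1 on 10. Klre1 stood at 457, 643 and 517 CPM in NK-like cells and at 40.1, 62.0 and 78.2 CPM in T-like cells, so HC replicate 2 was the high library for NK-like cells. Both receptors were several times higher in every NK-like library than in any T-like library.

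Ncr1 stood at 363, 397 and 300 CPM in NK-like cells (62, 50 and 58 UMIs). T-like cells held 12.5, 21.9 and 5.79 CPM. For Ncr1 the CSD library was the lowest of the 3 in both cell types.

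The Ly49 receptors were the most restricted. Klra4 stood at 534, 532 and 532 CPM in NK-like cells (91, 67 and 103 UMIs), nearly equal in the 3 libraries. T-like cells held 0, 0 and 1 UMI, and a count of 0 in 159 and in 95 cells allows up to 1.89% and 3.16% of cells with a UMI. Klra8 stood at 416, 413 and 537 CPM in NK-like cells and at 2.51, 14.6 and 2.90 CPM in T-like cells. In contrast to Nkg7, a UMI of Klra4 was in only 23.6%, 25.0% and 33.3% of NK-like cells, and one of Klra8 in 34.7%, 28.6% and 37.8%. After thinning the shares were 13.9%, 14.3% and 20% for Klra4 and 15.3%, 14.3% and 21.1% for Klra8.

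**Figure D2:**
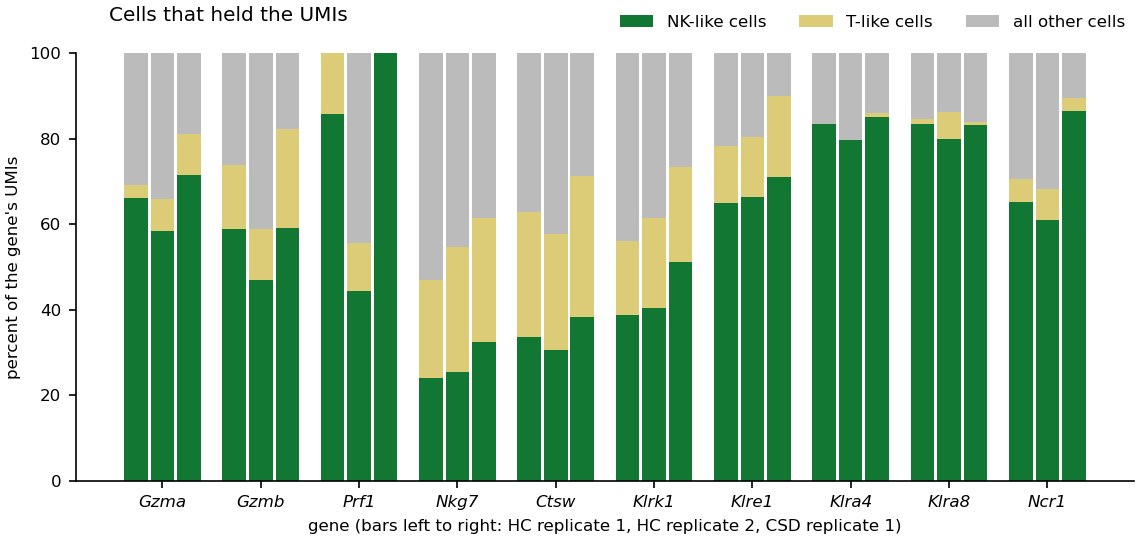
Percent of each gene's UMIs, per library, that lay in NK-like, T-like and all other cells. NK-like cells held 79.8% to 85.1% of Klra4 and 80.0% to 83.5% of Klra8, but only 24% to 32.5% of Nkg7.

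Where the molecules lay is another question than where the level was highest, because NK-like cells were few. NK-like cells held 38.6%, 37.9% and 47.5% of the UMIs of the 10 genes, T-like cells 18.0%, 22.4% and 22.8%, and all other cells together 43.4%, 39.8% and 29.7%. The CSD share of NK-like cells was 9.24 percentage points above the HC mean of 38.2 (SD 0.503, n = 2). Other choices of cells and clusters put this difference between 6.53 and 11.9. None of these choices subtracted free RNA, although barcodes of at most 100 UMIs held 7.87%, 24.1% and 5.48% of the UMIs. The part of free RNA in the difference was not tested. In such sums, more cells of a type and more RNA per cell cannot be told apart, and the share of neutrophil-like cells was also higher in the CSD library. By gene, NK-like cells held 66.1%, 58.5% and 71.4% of Gzma and 65.0%, 66.4% and 70.9% of Klre1. They held 38.7%, 40.5% and 51.2% of Klrk1 and 33.5%, 30.6% and 38.4% of Ctsw.

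Barcodes outside the cells gave a measure of free RNA. In barcodes of at most 100 UMIs the 10 genes summed to 340, 539 and 384 CPM, a level close to that of cDC-like cells. From the genes of B cells found in them, free RNA was estimated at 42.4%, 36.7% and 17.6% of the UMIs of NK-like cells and at 42.9%, 34.5% and 35.6% of those of T-like cells. These estimates rested on 33, 45 and 10 UMIs of B cell genes in NK-like cells and on 78, 92 and 36 in T-like cells. The part of free RNA in the low levels of the other cell types was not tested.

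NK-like cells fell into 2 subclusters, one of 126 cells (40, 33 and 53 in the 3 libraries) and one of 92 (32, 23 and 37). Over the 3 libraries together, the larger one was higher in the T-box factor Eomes (127 against 10.9 CPM) and in the held-out receptor Klra7 (379 against 27.2 CPM). The smaller one was higher in the chemokine receptor Cxcr6 (528 against 32.6 CPM), the chemokine Xcl1 (2822 against 1769 CPM), the granzyme gene Gzmc (245 against 45.7 CPM) and the receptor Klra9 (349 against 176 CPM). A UMI of Cd3d, Cd3e or Cd3g was in 14.3% of the larger and 34.8% of the smaller subcluster. Since the subclusters were made from the same cells, their differences are descriptions.

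Gzma, Klra4 and Klra8 differed most between them. Gzma stood at 3369, 2199 and 3909 CPM in the larger subcluster and at 387, 198 and 250 CPM in the smaller. Klra4 stood at 832, 749 and 824 against 74.3, 74.2 and 79.1 CPM, and Klra8 at 610, 608 and 841 against 119, 0 and 65.9 CPM. For these 3 genes every library of the larger subcluster lay far above every library of the smaller. Prf1 had the same order on few molecules, with 48.4, 46.8 and 42.5 CPM against 14.9, 0 and 0 CPM.

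**Figure D3:**
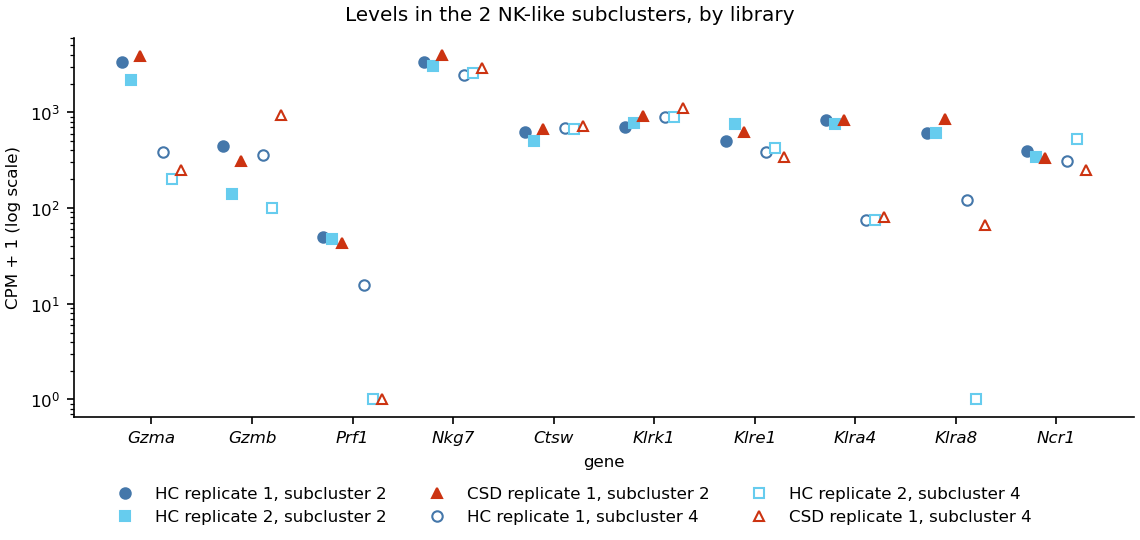
Level of the 10 genes (CPM + 1, log axis) in the larger (filled, numbered 2) and the smaller (open, numbered 4) NK-like subcluster, with 1 point per library. Gzma, Klra4, Klra8, Prf1, Klre1 and Nkg7 are higher in the larger subcluster without overlap, with the widest gaps for the first 3, whereas Ctsw and Klrk1 lie at or above the larger subcluster's level in the smaller one.

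Klre1 and Nkg7 differed less, again without overlap. Klre1 stood at 503, 749 and 629 CPM in the larger and 387, 421 and 343 CPM in the smaller subcluster. Nkg7 stood at 3359, 3053 and 3977 against 2483, 2548 and 2912 CPM. The remaining genes did not share this order. Ctsw (629, 503 and 663 against 684, 668 and 712 CPM) and Klrk1 (707, 772 and 909 against 892, 891 and 1107 CPM) were higher in the smaller one in each library. Ncr1 overlapped, at 397, 339 and 331 against 312, 520 and 250 CPM. Gzmb changed places: it was 445, 140 and 306 CPM in the larger subcluster and 357, 99.0 and 936 CPM in the smaller, so that in the CSD library alone the smaller subcluster had the higher level. Those 71 CSD UMIs lay in 13 cells, with 13 in the highest, while the 4 UMIs of HC replicate 2 lay in 1 cell.

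Single cells showed the Ly49 genes in different combinations. Of the 218 NK-like cells, 41 held UMIs of both Klra4 and Klra8, 20 of Klra4 only, 34 of Klra8 only and 123 of neither. In the larger subcluster the numbers were 40, 16, 31 and 39 of 126, and in the smaller 1, 4, 3 and 84 of 92. A cell without a UMI can still carry the transcript. The median NK-like cell held UMIs of 5 of the 10 genes in each library, and of 2, 2 and 3 after thinning.

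T-like cells were uneven as well. Their 5 subclusters held between 173 and 3915 CPM of the 10 genes. The lowest level was in the subcluster with Cd163l1 and Il17re, genes of gamma delta T cells that make IL-17, and the next lowest, 631 CPM, in the one with Ccr7, a receptor of naive T cells. T-like cells with a UMI of Cd8a or Cd8b1 and none of Cd4 numbered 60, 48 and 58, and the 10 genes summed to 2218, 2823 and 3309 CPM in them. Those with a UMI of Cd4 and none of Cd8a or Cd8b1 numbered 9, 6 and 6, with 120, 1945 and 1845 CPM on 2, 23 and 16 UMIs. The CD8 cells were above the CD4 cells in each library, by 1480 CPM on average. Cells with a UMI of neither numbered 89, 40 and 89, with 1460, 1309 and 2300 CPM. In the 21 CD4 cells only Nkg7 and Ctsw had UMIs. The zeros show no difference for Gzma, Gzmb and Klrk1. In CD4 cells 3 UMIs would stand for 181, 254 and 346 CPM, above these genes' CD8 levels in each library. Nkg7 in HC replicate 2 stood at 2081 CPM in CD8 and 1860 in CD4 cells. At 21 cells a lower level was not detectable.

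**Figure D4:**
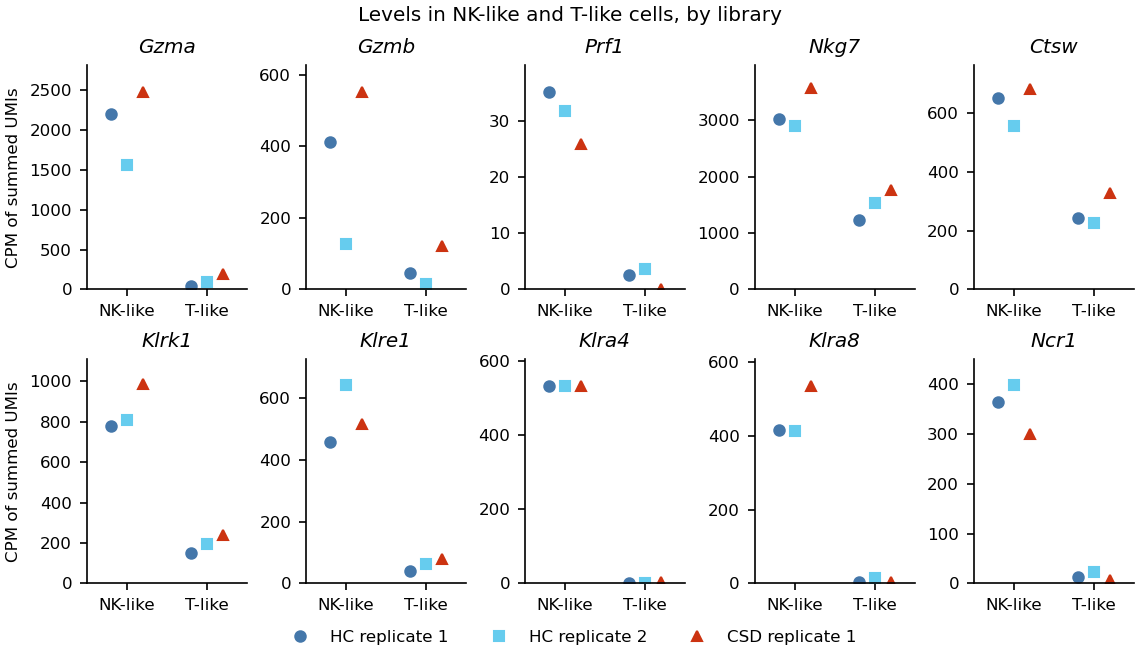
Level of each of the 10 genes (CPM, linear axis from 0, 1 panel per gene) in NK-like and T-like cells, with 1 point per library. No gene's NK-like points overlap with its T-like points, and the NK-like points of Gzmb run from 127 to 553 CPM, the widest spread of the 10 genes in relation to the mean.

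The study compared stressed with unstressed mice. Counts were summed over the NK-like cells of each library and tested across libraries by edgeR's quasi-likelihood test. In it the lone CSD library is assumed to vary like the 2 HC libraries. The spread behind each SE and p-value is drawn largely from the other genes tested, so it can understate a gene's own spread between pools. Of 1595 genes seen in more than 15% of NK-like cells 13 passed an adjusted p of 0.05, which is 0.815% of those tested, and 81 had an unadjusted p under it. None of the 9 tested members was among the 13, and Prf1 was below the filter. DESeq2 called 0 genes. The calls were unstable: 5 of the other settings, DESeq2 included, left none.

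The CSD library lay above both HC libraries for 6 of the 9 members (Gzma, Gzmb, Nkg7, Ctsw, Klrk1 and Klra8) and below both for Ncr1, where 31.8% of all genes tested lay above and 32.6% below. The log2 fold change, CSD against HC, had a median of 0.26 over the 9 members and -0.02 over all genes tested. The estimated free RNA of NK-like cells was lower in the CSD library (17.6% against 42.4% and 36.7%). That CSD estimate is uncertain, since it rested on 10 UMIs of B cell genes, against 33 and 45 in the HC libraries. In T-like cells of the CSD library the estimate was 35.6%. With these estimates of free RNA subtracted, the members' median was -0.058, with 3 of 9 positive, against 0.018 over all genes. The 9 genes come from the same 3 libraries, so their directions do not count as separate evidence.

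Gzmb was nearest to the threshold of the 10 genes, with a log2 fold change of 0.96 (SE 0.33, adjusted p = 0.349 by edgeR's quasi-likelihood test). The value rested on HC replicate 2: without that library it was 0.40, and leaving out the other HC library gave 2.13. When NK-like cells were instead chosen by receptor UMIs it was 1.22 with an adjusted p of 0.0111 by edgeR, the only alternative that called it. Gzma followed with 0.38 (SE 0.20, adjusted p = 0.991 by edgeR), and leaving out the 1st or the 2nd HC library gave 0.69 or 0.14.

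The other 7 fold changes were smaller in relation to their errors, each with an adjusted p of 0.991 by edgeR. On the log2 scale they were 0.26 (SE 0.17) for Nkg7, 0.16 (SE 0.26) for Ctsw, 0.30 (SE 0.24) for Klrk1 and 0.36 (SE 0.27) for Klra8. Klre1 was at -0.09 (SE 0.28), Klra4 at -0.02 (SE 0.27) and Ncr1 at -0.35 (SE 0.30). With these 3 libraries changes of these sizes were not detectable.

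**Figure D5:**
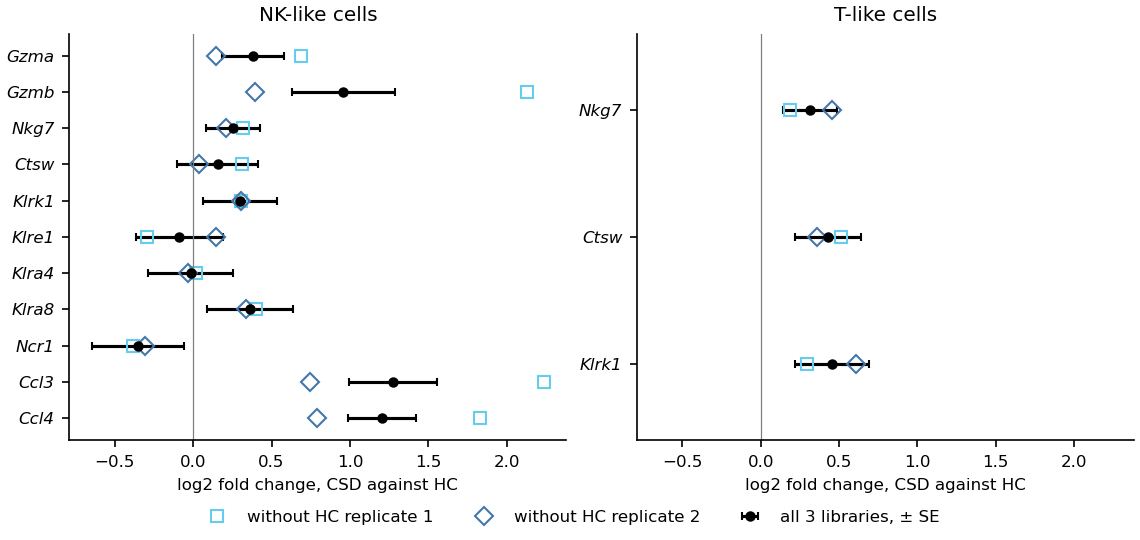
Log2 fold change, CSD against HC, in NK-like and T-like cells for the tested genes of the 10 and for the called list genes Ccl3 and Ccl4, with bars of 1 SE from edgeR and open marks for the value without each HC library. Of the 10 genes Gzmb in NK-like cells has the largest change, 0.96, which runs from 0.40 to 2.13 when an HC library is left out, and none of the 10 passed the adjusted threshold.

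In T-like cells 1594 genes were tested and edgeR called 0 (0% of those tested), with 59 at an unadjusted p under 0.05 and 1 called by DESeq2. Only Nkg7, Ctsw and Klrk1 were seen in over 15% of T-like cells. Their log2 fold changes were 0.32 (SE 0.17), 0.43 (SE 0.21) and 0.46 (SE 0.24), each with an adjusted p of 0.983 by edgeR. All 3 lay above both HC libraries, as did 32.4% of all genes tested.

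Gzma and Gzmb were below that filter in T-like cells. Without it they had log2 fold changes of 1.64 (adjusted p = 0.000747 by edgeR) and 1.97 (adjusted p = 0.00153 by edgeR). In that setting edgeR called 25 of 12569 genes. A single cell weighed on the first of these: 1 T-like cell of the CSD library held 45 of the 65 UMIs of Gzma. Without it the level was 58.3 CPM, between the HC libraries with all their cells (42.6 and 91.2 CPM). With the highest cell left out of every library, Gzma stood at 32.9, 48.2 and 58.3 CPM. Gzmb rested on 18, 4 and 42 UMIs in 7, 4 and 22 T-like cells, and 1 cell of HC replicate 1 held 10 of the 18. With the highest cell left out of every library, Gzmb stood at 20.2, 11.1 and 93.3 CPM.

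The difference between the responses of NK-like and T-like cells was tested in one fit with the library as a block. Of 1766 genes edgeR called 0 (0%), 63 had an unadjusted p under 0.05 and DESeq2 called 0. Gzmb differed by -0.95 on the log2 scale (SE 0.34, adjusted p = 0.977 by edgeR) and Gzma by -1.17 (SE 0.52, adjusted p = 0.977 by edgeR), both towards a higher response in T-like cells. The Gzma difference passed in 2 alternatives, with -1.91 (adjusted p = 3.37e-05 by edgeR) where the 10 genes were kept in the clustering and -2.14 (adjusted p = 0.00207 by edgeR) without the correction between libraries, and neither was fitted again without the T-like cell that held 45 UMIs of Gzma.

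The pathway around the 10 genes was read from lists of related genes. Cytokines and chemokines held the only calls among the lists in NK-like cells: of 7 genes 5 were tested, and Ccl3 and Ccl4, chemokines that NK cells release on activation, were called higher. Ccl3 stood at 885, 326 and 1519 CPM, with a log2 fold change of 1.28 (SE 0.28, adjusted p = 0.00686 by edgeR). Ccl4 stood at 2152, 1080 and 3797 CPM, with 1.20 (SE 0.22, adjusted p = 0.00079 by edgeR). Leaving out the 1st HC library gave 2.24 and 1.83, and leaving out the 2nd gave 0.75 and 0.79. Each lost its call in 7 alternatives, DESeq2 among them, and with NK-like cells chosen by receptor UMIs the fold changes were -0.39 for Ccl3 and 0.20 for Ccl4.

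In the CSD library 1 NK-like cell held 209 of the 294 UMIs of Ccl3, and 1 held 392 of the 735 UMIs of Ccl4. Without the highest cell of each gene the CSD levels were 446 and 1800 CPM, between those of the 2 HC libraries with all their cells. With the highest cell left out of every library, Ccl3 stood at 651, 303 and 446 CPM. Ccl4 then stood at 1651, 982 and 1800 CPM, with the CSD library above both HC libraries. Both genes were highest in mast cell and basophil-like cells, with 6040 to 6538 CPM of Ccl3 and 6539 to 7409 CPM of Ccl4. Microglia-like cells held 1125 to 1162 CPM of Ccl3 and 1263 to 1744 CPM of Ccl4. Border macrophage-like cells held 734 to 1272 and 699 to 1583 CPM, and the barcodes of at most 100 UMIs 249 to 320 and 284 to 451 CPM. Ifng and Xcl1 of the same list had log2 fold changes of -0.05 (SE 0.37) and -0.06 (SE 0.19). The test was not repeated without these cells.

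The other lists had no call by edgeR in NK-like cells, where 47.6% of all genes tested were positive. Of 19 other granule and exocytosis genes 6 were tested and 4 were positive. Their 2 highest were Srgn, the proteoglycan that packs granzymes, with 668, 683 and 749 CPM, and Serpinb6b, an inhibitor of granzyme A, with 223, 175 and 253 CPM. Of 23 other NK receptors 10 were tested and 6 were positive. Klra7, the inhibitory receptor Ly49G2, stood at 176, 222 and 325 CPM and Klra9, another Ly49 receptor, at 334, 199 and 186 CPM. The pair pointed in opposite directions, with log2 fold changes of 0.71 (SE 0.32, adjusted p = 0.926 by edgeR) and -0.57 (SE 0.35, adjusted p = 0.991 by edgeR).

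Of 14 adaptors and proximal kinases 6 were tested and 3 were positive. Tyrobp, the adaptor of the activating Ly49 receptors, stood at 3107, 3519 and 3255 CPM, and Fcer1g, an adaptor of Ncr1, at 2967, 3066 and 3265 CPM. Both adaptors were level across the libraries. Of 13 transcription factors 5 were tested and 2 were positive, and Id2, which NK cells need to develop, stood at 1026, 937 and 852 CPM. Klf2, a factor of lymphocyte trafficking, stood at 340, 508 and 294 CPM.

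Of 16 genes for cytokine inputs 3 were tested and all 3 were positive, with Il2rb and Il2rg, subunits of the IL-15 receptor, at 254 to 284 and 238 to 269 CPM. Of 11 genes of NK maturation 6 were tested and 5 were positive, with Cd7 at 633, 890 and 873 CPM and Ly6c2 at 534, 556 and 594 CPM. In T-like cells these lists had no call either.

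Across the 17 cell types, the genes whose levels followed the sum of the 10 most closely were Ccl5 (r = 0.90), Klra7 (0.88), Txk (0.87), Cd160 (0.87) and Wdr95 (0.86). These are Pearson correlations of log2(CPM + 1), a description over types that share libraries and free RNA. Txk was itself one of the NK markers that named the cells, as were Xcl1 and Klrb1c, which come next. By gene, the closest were Xcl1 for Gzma (0.94), Klra8 for Prf1 (0.94), Fasl for Ctsw (0.89), Ms4a4b for Klrk1 (0.91), Klra9 for Klre1 (0.90), Klrb1c for Klra4 (0.79), Klrc1 for Klra8 (0.87) and Klra7 for Ncr1 (0.89). Wdr95 was closest to Gzmb (0.90) and to Nkg7 (0.89), but it had only 50 UMIs in all cells, the lowest count admitted.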

How the data were processed

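Cell Ranger 2 (mm10, both from the submitters' processing notes) made the gene by barcode matrix of UMI counts that the authors deposited, with no normalization; a barcode's ending gave its library, and 56 symbols belong to more than 1 gene. Depth was 8814690 to 10206236 UMIs per library.

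The members and gene lists were chosen with earlier results of these data known. Doublets were removed with Scrublet by its automatic threshold (47 and 25 in the HC libraries). In the CSD library that threshold marked 0.145%, so the highest 5.1% by score were removed (141). Size factors came from scran 1.30.0. Counts were log transformed, reduced to 50 principal components, corrected between libraries by mutual nearest neighbours (k = 20) and clustered with Leiden at resolution 1 (scanpy 1.11.5, leidenalg 0.10.2). The 52 genes of the member, granule and NK receptor lists were held out. Clusters were named from fixed marker lists, and 157 cells stayed unnamed. The 672 cells of the lymphoid clusters were clustered again (20 components), a step added after seeing the data.

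UMIs were summed per library and type, and tested with edgeR 4.0.16 (quasi-likelihood, TMM, two-sided, Benjamini-Hochberg over all genes tested) in R 4.3.3. DESeq2 1.42.0 was an alternative. Shares were also computed with cells thinned to 500 UMIs. Named genes were the 10 members, list genes past the threshold or, where a list had none, its 2 highest by mean CPM in NK-like cells, and the genes of most similar pattern among those with at least 50 UMIs. Leiden subclusters, lymphocyte genes that describe them and other genes of the cytokine list were named after their values were seen. Alternatives changed cell filters and clustering, and for the tests also free RNA, scaling and the gene filter. The edgeR tests of CSD against HC in NK-like and in T-like cells were also run on simulated counts.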

Additional observations from a re-analysis of the deposited data

Results flagged for a closer look

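The 10 genes summed to 409 CPM in the 141 barcodes of the CSD library that were removed as doublets, against 269 CPM in the 47 of HC replicate 1 and 244 CPM in the 25 of HC replicate 2. These barcodes entered no comparison, and the CSD level was above that of the control libraries. The doublets of the CSD library were taken by rank and those of the HC libraries by the automatic threshold, and the part of that choice in the difference was not tested.

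Klra4 in NK-like cells was 532 CPM in the CSD library, below both HC libraries (534 and 532 CPM) by a margin far under counting error and only in CPM without TMM scaling (with TMM it lay between them), while in T-like cells the CSD library, with 1 UMI, lay above both HC libraries, with 0 each. The opposite order drew attention to it. Klra4 was below the 15% filter in T-like cells, so the T-like change was not tested.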

How the results depend on the processing

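No paired analysis was possible because each library was a separate pool of mice, and the replicate numbers do not pair HC with CSD libraries. In NK-like cells the 13 calls by edgeR became 0 without removal of doublets, at Leiden resolution 2, without the second clustering, with library totals in place of TMM and by DESeq2, where 57, 65, 64, 66 and 10 genes had an unadjusted p under 0.05. They became 20 (19 higher) with free RNA subtracted. In T-like cells the 0 calls became 9 without removal of doublets, 2 at 1000 UMIs or more, 21 at a mitochondrial limit of 5%, 1 at Leiden resolution 2, 2 with the second clustering at resolution 0.5, 1 by DESeq2 and 25 without the gene filter. The 0 calls for the difference between the cell types became 1 without correction between libraries, 3 with members kept in the clustering and 1 without the gene filter. The causes were not tested.

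The CSD excess in the share of members' UMIs held by NK-like cells, 9.24 percentage points, was 6.78 without removal of doublets, 8.68 at a mitochondrial limit of 5%, 9.91 at Leiden resolution 2, 8.63 without correction, 7.48 with members kept, 11.9 without the second clustering and 6.53 with cells chosen by receptor UMIs, and 8.89 to 9.60 leaving out an HC library. That of the NK-like share of cells, 0.361, ranged from 0.102 to 0.620 leaving out an HC library. The excess of CD8 over CD4 cells was 1171 to 1781 CPM leaving out a library. The number of members highest in NK-like cells in every library was 9 with members kept and 9 without the second clustering.

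The sign turned for some genes. In NK-like cells Ccl3 was -0.39 (log2) by receptor UMIs. With free RNA subtracted Ctsw was -0.15, Klrk1 -0.017 and Nkg7 -0.058. Klra4 was 0.039 with members kept, 0.070 at a limit of 5% and 0.051 without the filter, and -0.036 to 0.018 leaving out an HC library. Klre1 was 0.19 without the second clustering and -0.30 to 0.14 leaving out an HC library. In T-like cells Ccl4 was -0.79 to 0.76 leaving out an HC library. In the difference, by receptor UMIs, Ctsw was 0.019, Gzmb 0.077 and Klra4 0.42. Klra8 was -0.38 with members kept and -0.51 without correction. Klrk1 was 0.0087 at Leiden resolution 2, 0.094 without correction and 0.026 without removal of doublets. Ccl3 and Ccl4 each lost their call in NK-like cells in 7 alternatives. The other 132 of 142 values of members in NK-like cells, 45 of 45 in T-like cells and 107 of 117 for the difference kept their sign and their side of the threshold. The second clustering, its resolution and the shares by receptor UMIs were alternatives chosen after seeing the data.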

Other observations

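The partners of these receptors were read in the other cell types. Of 9 ligands of Klrk1 5 were measured, and 4 of them (H60b, H60c, Raet1d and Raet1e) had 3 to 9 UMIs in all named cells together. Ulbp1 had 33 UMIs, 14 of them in preneutrophil-like and 14 in pro- and pre-B-like cells. At this depth their levels in single cell types could not be compared.

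Barcodes of more than 100 and fewer than 500 UMIs held 226, 582 and 165 CPM of the 10 genes in HC replicate 1, HC replicate 2 and the CSD library. Barcodes left out by the gene and mitochondrial limits held 152, 262 and 83.3 CPM. HC replicate 2, the library with the most UMIs in small barcodes, was the highest in both.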
